A study of Homo sapiens with 2 samples.

Results

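The clustered protocadherin locus on the long arm of chromosome 5 was described in HCT116, an established human colorectal carcinoma cell line, by ChIP-seq for H3K27me3. H3K27me3, histone H3 trimethylated at lysine 27, is the product of Polycomb repressive complex 2 and is typical of silenced developmental genes. The locus was taken as all 850 bins of 1 kb from 140100001 to 140950000 on hg19, out of 3035337 bins of chromosomes 1 to 22 and X. It holds PCDHA (226 bins), PCDHB (197 bins), PCDHG (182 bins) and the gaps before, between and after them. The series has 1 group, untreated HCT116 cells immunoprecipitated with an H3K27me3 antibody, in 2 libraries named as biological replicates. Input DNA, another antibody or another condition were not analysed here. The libraries held 53187504 reads (replicate 1) and 97031399 reads (replicate 2). The level of a bin is its read count over the library's mean of listed autosomal bins, which came to 22.002 and 37.535 reads. A level of 1 is that mean, and a bin that was not listed counts as 0. The levels carry no correction for copy number or mappability. With 2 libraries of 1 group no test between stretches was made, and differences are set against the replicate SD and the counting error, which is widened by the dispersion of the read split between the libraries (2.52).

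Clustered protocadherins are cell-surface adhesion proteins that give single neurons different identities, because each neuron uses its own few promoters out of the clusters. In PCDHA and PCDHG, every variable exon has its own promoter and is spliced to a shared set of constant exons at the end of the cluster, which encode the common cytoplasmic tail. PCDHB genes have single coding exons and no constant exons. The last variable exons of PCDHA and PCDHG, called C-type, are regulated differently from the others. Most of the other promoters carry a conserved element with the core CGCT and can be bound by the insulator protein CTCF. The gene table lists 53 protein-coding genes: 13 alpha genes and 2 C-type genes in PCDHA, 16 in PCDHB, and 12 of type A, 7 of type B and 3 C-type genes in PCDHG. No hg19 gene positions were used. The variable, C-type and constant exons were therefore represented by stretches measured from the cluster ends, with the order of the exons taken from general knowledge.

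The promoters of 47 of the 53 genes were matched by symbol in RefSeq sequences (GRCh38.p14, plus strand), each a window of 300 bases with 250 before the gene start and 50 after it. Those shown here represent the non-C-type promoters of each cluster and the C-type promoters closest to the highest H3K27me3 values for which a sequence was matched, with each CGCT in capitals.
PCDHA1: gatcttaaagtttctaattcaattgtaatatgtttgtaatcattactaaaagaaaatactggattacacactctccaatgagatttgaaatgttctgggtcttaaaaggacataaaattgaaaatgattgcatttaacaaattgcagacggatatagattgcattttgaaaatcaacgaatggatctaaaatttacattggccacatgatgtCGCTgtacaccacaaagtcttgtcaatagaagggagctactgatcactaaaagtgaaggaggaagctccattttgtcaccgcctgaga
PCDHB2: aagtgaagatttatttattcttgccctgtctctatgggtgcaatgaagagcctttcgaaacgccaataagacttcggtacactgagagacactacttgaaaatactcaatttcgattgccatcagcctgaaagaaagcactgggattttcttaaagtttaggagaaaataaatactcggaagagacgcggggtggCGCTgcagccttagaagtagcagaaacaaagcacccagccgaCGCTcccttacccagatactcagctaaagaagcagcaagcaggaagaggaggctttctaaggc
PCDHGA1: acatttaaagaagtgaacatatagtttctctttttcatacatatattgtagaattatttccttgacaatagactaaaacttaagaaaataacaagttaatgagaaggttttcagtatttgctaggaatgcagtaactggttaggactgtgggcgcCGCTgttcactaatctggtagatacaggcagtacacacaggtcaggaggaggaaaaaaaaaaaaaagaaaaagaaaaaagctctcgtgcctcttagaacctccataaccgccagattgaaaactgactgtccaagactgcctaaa
PCDHAC2: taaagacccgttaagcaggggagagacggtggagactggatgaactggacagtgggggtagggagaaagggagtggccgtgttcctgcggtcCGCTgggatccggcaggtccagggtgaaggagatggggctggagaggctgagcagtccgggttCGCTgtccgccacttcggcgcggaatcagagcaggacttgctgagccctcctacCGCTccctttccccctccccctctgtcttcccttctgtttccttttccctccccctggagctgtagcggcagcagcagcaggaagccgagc
PCDHGC4: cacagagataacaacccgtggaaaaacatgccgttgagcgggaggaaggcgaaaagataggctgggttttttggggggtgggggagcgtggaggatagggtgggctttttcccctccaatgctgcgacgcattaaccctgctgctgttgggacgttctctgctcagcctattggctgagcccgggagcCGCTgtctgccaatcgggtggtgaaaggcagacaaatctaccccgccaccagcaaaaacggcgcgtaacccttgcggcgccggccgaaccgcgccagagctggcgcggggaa
Where the table gives a second start for a gene, only the first window was counted. CGCT was found on the strand of the gene in 46 of the 47 genes (97.9%), PCDHA9 being the exception, against 54.3% of all 35116 promoter windows in the table. In the 100 bases before the start the share was 93.6% against 28.7%. On either strand, where AGCG is the reverse complement and matches may overlap, the shares were 97.9% and 70.0%. The C-type promoters differed from the others in base composition. PCDHAC1, PCDHAC2, PCDHGC3 and PCDHGC4 had 59 to 66% G + C and 15 to 27 CpG dinucleotides, whereas the 43 other genes had 32.3 to 51.3% and 2 to 16. All promoters of the table had a median of 58.7% and 14 CpG. The 4 C-type genes thus overlapped the others in CpG number at 15 and 16 and did not overlap them in G + C content. This separation holds for the first windows only. The second windows of PCDHGB4, PCDHGB5 and PCDHGB6 had 58.7 to 65% G + C and 17 to 25 CpG, inside or near the C-type range. That of PCDHGB1, at 51.7% and 11 CpG, lay near the upper G + C end of the other genes. These counts describe the sequences, and a match is not a site.

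**Figure D1:**
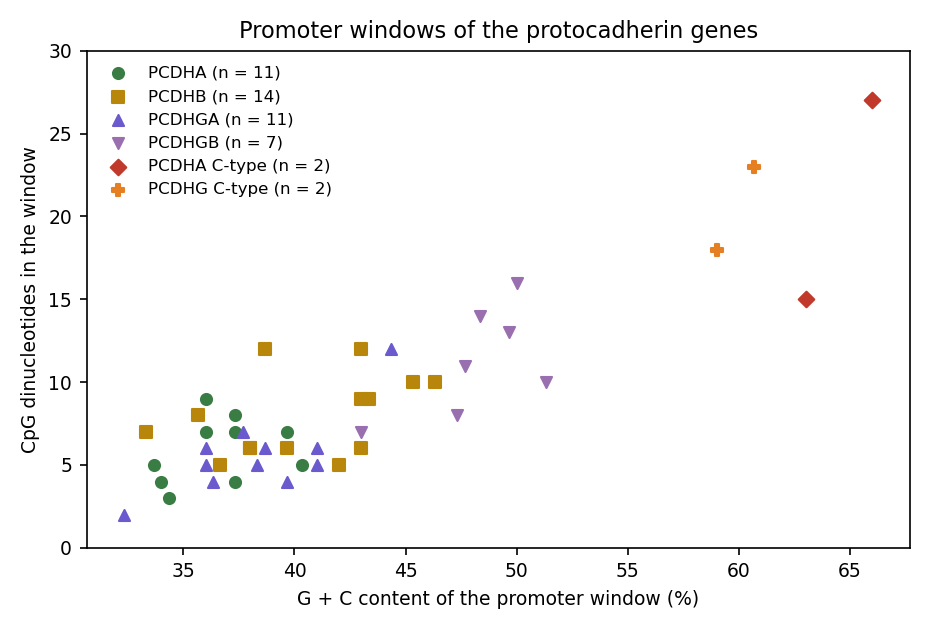
G + C content in percent (x axis) and number of CpG dinucleotides (y axis) of the promoter window of each of 47 protocadherin genes, one point a gene, coloured by type. The 4 C-type genes lie at 59 to 66% G + C, to the right of all other genes, which end at 51.3%; only the first window of each gene is plotted.

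H3K27me3 was low over the locus as a whole. The mean level was 0.314 in replicate 1 and 0.334 in replicate 2, or 0.324 ± 0.0141 (SD, n = 2), from 5879 and 10664 reads. Among 50292 autosomal windows of the same length, taken at steps of 50 kb with at least 90% of bins listed, the locus ranked at percentile 27.2 and 26.7, and the median window stood at 0.617 and 0.660. The median bin of the locus was 0.227 and 0.266, close to the median over all autosomal bins of 0.273 and 0.293. That autosomal median counts unlisted bins as 0, and over listed autosomal bins alone it was 0.409 and 0.373. Autosomal windows of 10 kb with at least 90% of bins listed had a median of 0.359 and 0.386. The 10 kb windows of the locus had a median of 0.273 and 0.312. The locus therefore lay near the median bin when unlisted bins are counted, and below the median of listed sequence. It held few of the high bins that raise the mean elsewhere. Bins under 0.5-fold in both libraries made up 606 of the 850 (71.3%), against 59.7% of all bins. Bins at or above 1-fold in both numbered 12, where 19.5% of all bins reached that level.

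No broad H3K27me3 domain at 2-fold or more over the library mean was found at the protocadherins. The calls below cannot find a broad stretch that is raised over its surroundings but lies under the library mean. Enriched bins had to pass, in both libraries, a one-sided Poisson test against the mean (p under 0.05 after Benjamini-Hochberg adjustment over all bins) and to reach a level of 2. This held for 2 of the 850 bins, or 0.235%, against 11.0% of all bins. Replicate 1 alone gave 4 enriched bins (0.471%, against 12.1% of all bins) and replicate 2 alone gave 3 (0.353%, against 12.9%). At a minimum of 1.5-fold 3 bins of the locus passed, against 14.2% of all bins, and without a fold minimum also 3, against 14.4%. At 3-fold 0 bins passed, against 6.56%, and 0 of the 170 bins of 5 kb, against 79198 of 607074 such bins. With counts divided by the dispersion 2 passed, against 10.8%. The 2 shared bins were neighbours in PCDHG, so the longest run was 2 kb. PCDHA, PCDHB and the gaps held 0 bins enriched in both. A bin reaches 2-fold with 45 reads in replicate 1 and 76 in replicate 2, against 6.92 and 12.5 reads in the mean bin of the locus.

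The 3 clusters differed in level. PCDHB was the lowest, at 0.259 in each library (SD 3.63e-05, n = 2, with a counting error of 4.74% and 3.63% of the level). PCDHA stood at 0.360 in replicate 1 and 0.400 in replicate 2, or 0.380 ± 0.0281 (SD, n = 2). PCDHG stood at 0.413 and 0.408, or 0.411 ± 0.00359 (SD, n = 2). Both PCDHA and PCDHG were above PCDHB in each library. PCDHA exceeded PCDHB by 0.101 in replicate 1 (counting error 0.0182) and by 0.141 in replicate 2 (counting error 0.0144). PCDHG exceeded PCDHB by 0.154 and 0.149, with counting errors of 0.0202 and 0.0154. PCDHG and PCDHA could not be ordered, as their difference was 0.0531 (counting error 0.0210) in replicate 1 and 0.00823 (counting error 0.0164) in replicate 2. Without the 4 highest neighbouring bins of PCDHG, its level was 0.372 in each library, inside the range of PCDHA.

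The excess of PCDHA and PCDHG over PCDHB lay mostly outside their long arrays of non-C-type variable exons. Weighted by length, the C-type stretch of PCDHA made up 44.6% of its excess in replicate 1 and 48.6% in replicate 2, and its constant stretch 43.1% and 48.0%. In PCDHG the C-type stretch made up 49.8% and 48.6%, the constant stretch 31.2% and 27.7%, and the type A and type B exons 19.0% and 23.7%. The first 100 kb of PCDHA, which hold the variable exons PCDHA1 to PCDHA13, stood at 0.287 in replicate 1 and 0.270 in replicate 2. Their difference from PCDHB, 0.0282 and 0.0110, was of the size of the counting errors of 0.0219 and 0.0164. The type A and type B variable exons of PCDHG, from 140711001 to 140816000, stood at 0.309 and 0.320. They exceeded PCDHB by 0.0509 and 0.0614 (counting errors 0.0221 and 0.0171), a small step of 1.22 ± 0.0288 times (SD, n = 2). These arrays and PCDHB lay between 0.259 and 0.320 in both libraries, with PCDHG at the top of that range.

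**Figure D2:**
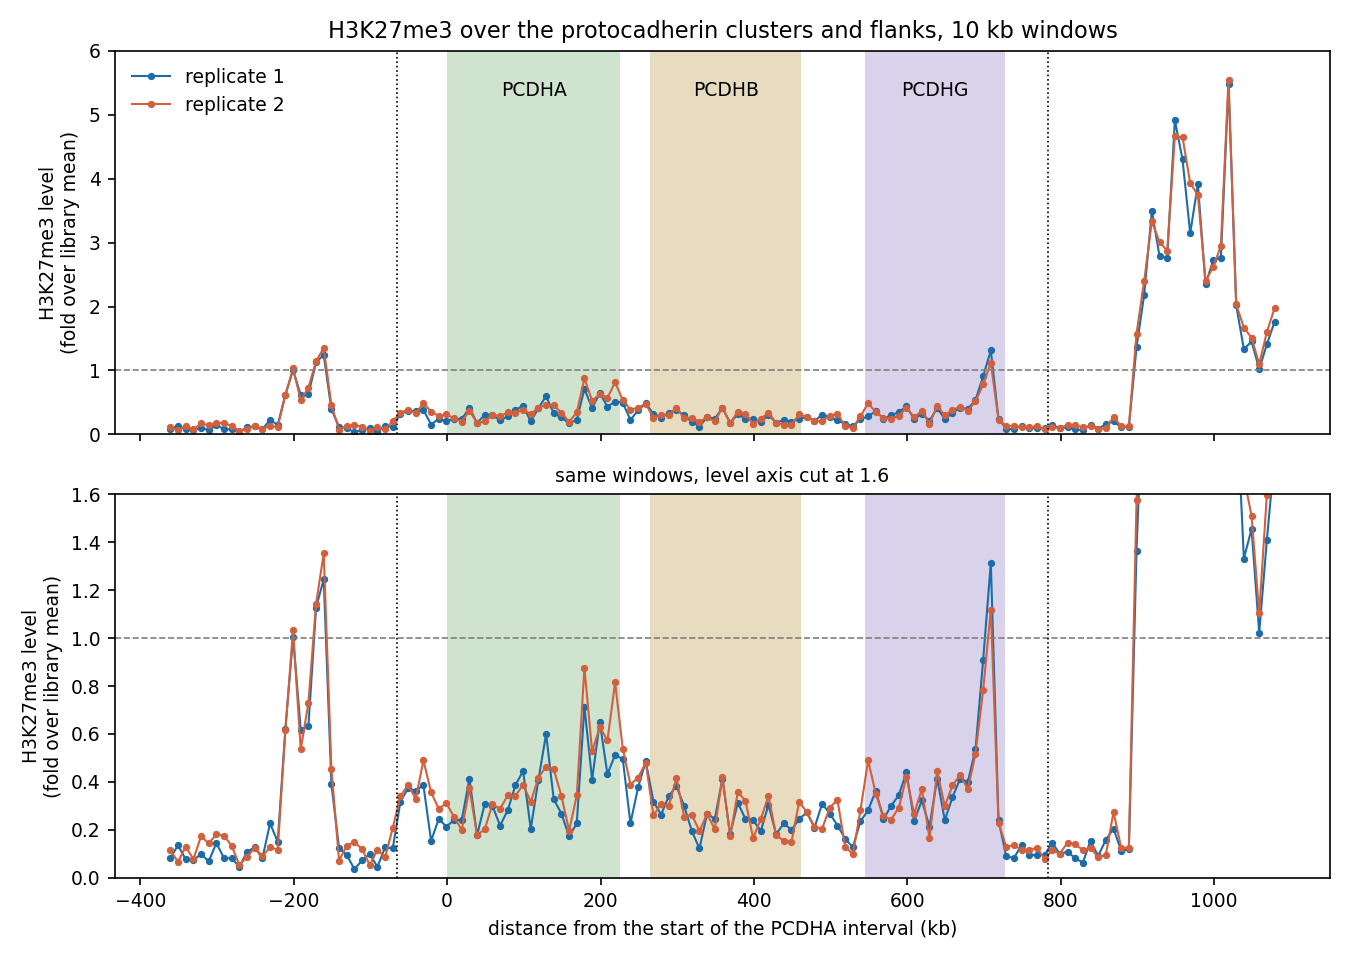
Mean H3K27me3 level in fold over the library mean (y axis) in 10 kb windows against the distance from the start of the PCDHA interval in kb (x axis), for both libraries, with the clusters shaded, the ends of the locus dotted and a level of 1 dashed; the lower panel cuts the level axis at 1.6. The windows of the locus stay between 0.0799 and 1.31, with the highest at the end of PCDHG, and the downstream flank reaches 5.55.

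Within PCDHA the mean level rose from stretch to stretch, but not as an even gradient. The lowest 10 kb of the cluster, at 0.150 and 0.173, lay inside the middle stretch. The middle stretch, from 140266001 to 140356000, which holds the C-type exons PCDHAC1 and PCDHAC2, stood at 0.372 in replicate 1 and 0.431 in replicate 2. The last 36 kb, which hold the constant exons, stood at 0.533 and 0.684, or 0.608 ± 0.107 (SD, n = 2). In these 36 kb the median bin was 0.568 and 0.733, so the raised level was spread over the stretch, and its highest bin reached only 1.27 and 1.36. The constant stretch was 1.86 times the first 100 kb in replicate 1 and 2.54 times in replicate 2. The differences were 0.246 and 0.414, with counting errors of 0.0450 and 0.0381. The size of the step is imprecise, since the libraries differed more in the constant stretch (counting errors 7.72% and 5.22%) than in the first 100 kb. Behind the cluster the level fell from that of the constant stretch, to 0.388 and 0.454 in the 39 kb gap before PCDHB. This gap was not below the C-type stretch (0.372 and 0.431) in either library, so the raised level did not end with the cluster.

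The highest bin of PCDHA lay near the end of the C-type stretch, from 140344001 to 140345000. It held 57 reads in replicate 1 and 73 in replicate 2, which gives 2.59 (exact Poisson 95% interval 1.96 to 3.36) and 1.94 (1.52 to 2.45). It passed the call in replicate 1 and missed the fold minimum in replicate 2. The bin before it stood at 1.14 and 1.44 and the bin after it at 0.636 and 1.23. That following bin held 14 reads in replicate 1 and 46 in replicate 2, so it was above 1-fold in replicate 2 only. Whether the peak differed in width between the libraries was not tested. PCDHAC2 is the C-type gene nearest to the constant exons, and its promoter is printed above. Intervals of this kind, here and for the PCDHG peak below, cover Poisson error only. They are not widened by the dispersion, so they are narrower than the counting errors given elsewhere would make them.

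In PCDHG the mark rose towards the border of the C-type and constant stretches and fell behind it. This border was set from general knowledge, so the data do not show whether its peak lies over PCDHGC5 or over the first constant exon. The C-type stretch from 140816001 to 140873000, which holds PCDHGC3, PCDHGC4 and PCDHGC5, stood at 0.504 in replicate 1 and 0.490 in replicate 2. That was 1.63 and 1.53 times the type A and type B stretch, a difference of 0.194 and 0.170 with counting errors of 0.0367 and 0.0279. The last 20 kb, set to hold the constant exons, stood at 0.698 and 0.635, but this mean came from its first bins. The 4 bins from 140873001 to 140877000 averaged 2.25 in replicate 1 and 2.00 in replicate 2, from 198 and 301 reads. They held 11.97% and 10.80% of all reads of PCDHG. Without them the constant stretch stood at 0.310 and 0.293, against 0.309 and 0.320 in the type A and type B stretch. The ratio was then 0.958 on average, whereas with them it was 2.12 ± 0.190 (SD, n = 2). The last 10 kb of the constant stretch alone gave a ratio of 0.677. For PCDHG a difference between constant and variable exons therefore depends on 4 bins at the border of the stretches, and only the rise up to that border is described here.

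These 4 bins formed the highest peak of the locus. The bin from 140875001 to 140876000 held 66 and 86 reads, which gives 3.00 (exact Poisson 95% interval 2.32 to 3.82) in replicate 1 and 2.29 (1.83 to 2.83) in replicate 2. The bin before it stood at 2.41 and 2.10, and both were enriched in both libraries. The outer bins were called in 1 library each, at 2.42 in replicate 2 for the first and at 2.05 in replicate 1 for the last. The highest 10 kb window of the locus, from 140867001 to 140877000, reached 1.44 and 1.25. The peak was thus seen in both libraries, and the libraries differed in which of its bins was highest.

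**Figure D3:**
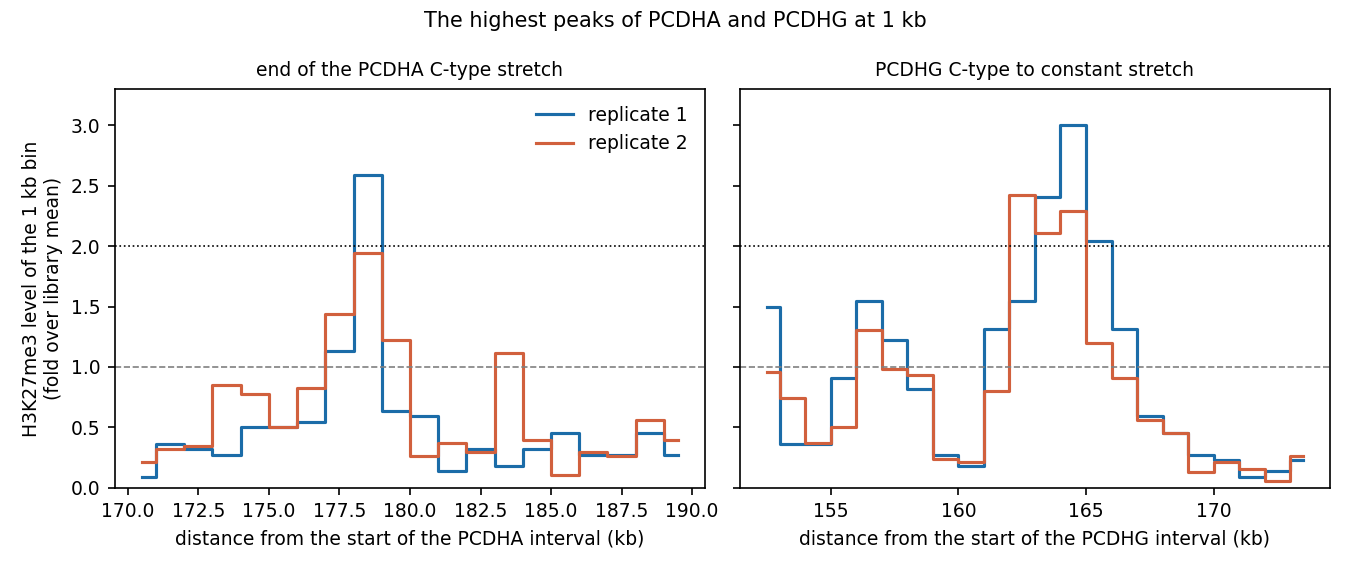
H3K27me3 level of each 1 kb bin in fold over the library mean (y axis) against the distance from the start of the cluster in kb (x axis), for both libraries, at the end of the PCDHA C-type stretch (left) and at the border of the PCDHG C-type and constant stretches (right); the dashed line marks 1-fold and the dotted line 2-fold. On the left 1 bin reaches 2.59 and 1.94, and on the right a broader peak reaches 3.00 in replicate 1 and 2.42 in replicate 2.

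All 12 bins at or above 1-fold in both libraries lay in 2 of the 3 clusters. PCDHA held 2 of them, both at the peak near the end of its C-type stretch. PCDHG held 10: 3 among the type A and type B exons, 3 in the C-type stretch and the 4 bins of the peak. The bins among the type A and type B exons were from 140759001 to 140761000, at 1.59 and 1.09 and at 1.64 and 1.23, and from 140805001 to 140806000, at 2.00 in replicate 1 and 1.36 in replicate 2. PCDHB held 0 such bins. Its highest bin by the mean of both libraries, from 140467001 to 140468000, stood at 0.773 and 1.01.

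PCDHB was also the cluster with the narrowest range. Its 19 neighbouring windows of 10 kb ranged from 0.141 to 0.414 in replicate 1, with a median of 0.236, and from 0.160 to 0.421 in replicate 2, with a median of 0.240. The 22 windows of PCDHA ranged from 0.150 to 0.695 and from 0.160 to 0.845, and the 18 windows of PCDHG from 0.168 to 1.31 and from 0.168 to 1.11. The highest window of PCDHB was thus under the highest of the other clusters in both libraries, while the lowest windows of all 3 were alike. Over the whole locus, 6 of 85 windows reached 0.5-fold in both libraries, against 40.0% of autosomal windows.

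Valleys were found in each cluster when 10 kb windows could start at any bin. The lowest 10 kb of PCDHA, from 140316001 to 140326000, stood at 0.150 and 0.173 and lay inside the C-type stretch. The lowest 10 kb of PCDHB, from 140565001 to 140575000, stood at 0.168 and 0.131. The lowest 10 kb of PCDHG, from 140793001 to 140803000, stood at 0.100 and 0.128. The lowest 10 kb of the whole locus lay outside the clusters, from 140692001 to 140702000 in the gap between PCDHB and PCDHG, at 0.0682 and 0.0906 from 15 and 34 reads. In the gene table that gap holds SLC25A2, a mitochondrial ornithine carrier gene, and TAF7, which encodes a subunit of the general transcription factor TFIID. The 83 kb of the gap stood at 0.229 and 0.242, below PCDHA and PCDHG in both libraries. Against PCDHB the differences were -0.0292 and -0.0162, of the size of the counting errors of 0.0216 and 0.0168.

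**Figure D4:**
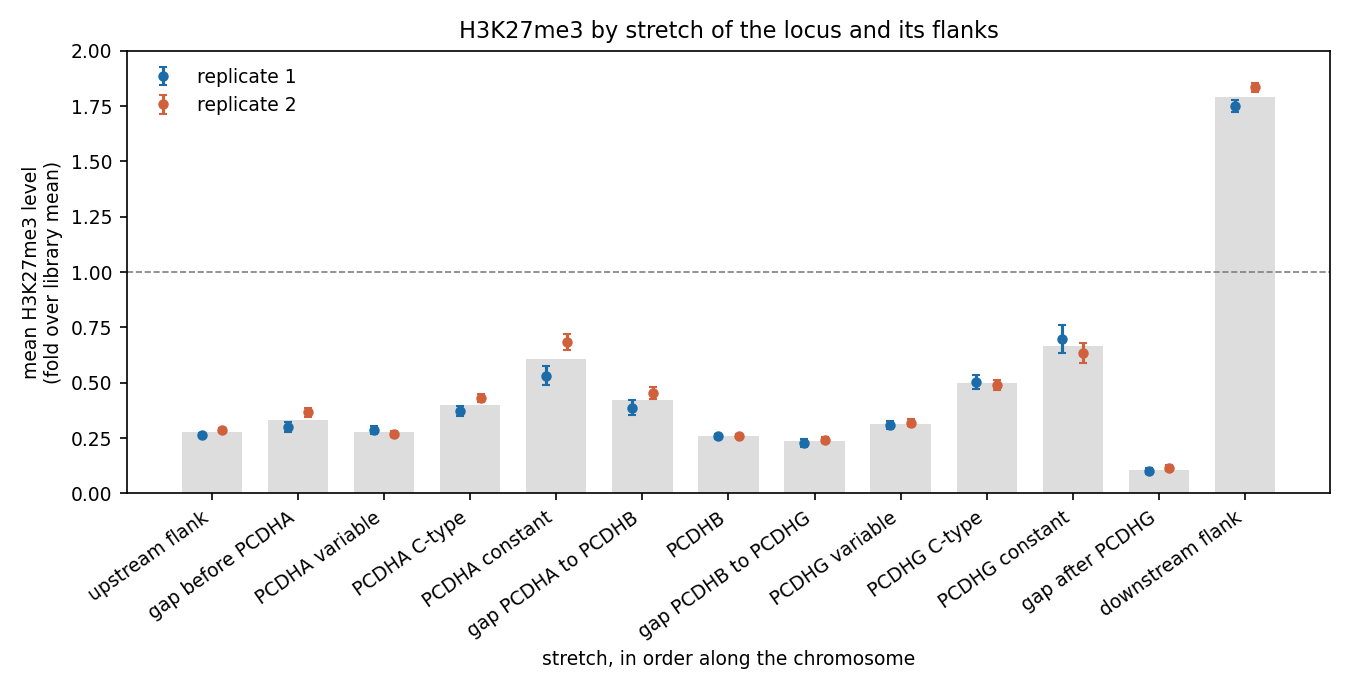
Mean H3K27me3 level in fold over the library mean (y axis, from 0) for each stretch of the locus and its flanks in chromosome order (x axis); bars are the mean of both libraries, points the libraries and error bars 1 counting error widened by the dispersion. Levels are 0.259 in PCDHB, rise to 0.608 in the PCDHA constant stretch and 0.667 in the PCDHG constant stretch, and stand at 0.108 behind PCDHG.

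The locus was bounded on both sides by lower levels. In the gene table ZMAT2, HARS2 and HARS1, the latter both encoding histidyl-tRNA synthetases, precede PCDHA, and DIAPH1, an actin-nucleating formin gene, and HDAC3, a histone deacetylase gene, follow PCDHG. The last 50 kb before the locus stood at 0.0936 in replicate 1 and 0.117 in replicate 2, and the first 50 kb inside it at 0.319 and 0.381. The step was 3.34 ± 0.101 times (SD, n = 2), with differences of 0.225 and 0.264 and counting errors of 0.0307 and 0.0258. It lay before the PCDHA interval itself, as the 66 kb between the start of the locus and PCDHA already stood at 0.300 and 0.367. These 66 kb exceeded the first 100 kb of PCDHA by 0.0128 in replicate 1 (counting error 0.0291) and by 0.0969 in replicate 2 (counting error 0.0235), so the libraries differed in whether the level fell again before PCDHA. At the other end the last 50 kb of PCDHG stood at 0.664 and 0.589, and the 50 kb behind it at 0.106 and 0.120. The downstream end thus followed closely on the highest peak of the locus, and the upstream end did not lie at a peak.

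The flanks of 300 kb were not uniform. The upstream flank had a mean of 0.265 and 0.287, and it held a raised stretch of 60 kb from 139950001 to 140010000, where 10 kb windows reached 1.25 and 1.35. The 80 kb between 140020001 and the locus had windows of at most 0.127 and 0.208. The downstream flank had a mean of 1.75 and 1.83. Its first 110 kb had windows of at most 0.205 and 0.274, and from 141060001 to the end of the flank every window stood at 1.02 or more in both libraries and up to 5.48 and 5.55. In that flank 100 of 300 bins were enriched in both libraries. The runs of at least 10 kb were 31 kb from 141104001 at 4.27 ± 0.109, 10 kb from 141137001 at 4.08 ± 0.0610 and 12 kb from 141179001 at 5.13 ± 0.0722 (each SD, n = 2). A domain well above the library mean was thus found in the downstream flank of the same libraries, while the clusters themselves were not above it.

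Bins that were not listed made up a smaller share of the locus than of the autosomes. In replicate 1, 82 of the 850 bins had no read (9.65%), against 18.1% of autosomal bins, and in replicate 2, 29 (3.41%) against 12.4%. Only 10 bins were empty in both. The autosomal shares count every bin of a chromosome, also those where no read can be placed, so they are not shares of like sequence. The shares over all bins given above count such bins too. PCDHB had 26 empty bins in replicate 1 and 8 in replicate 2, PCDHA 14 and 7, and PCDHG 12 and 2. The variable exons are similar in sequence within a cluster, and the treatment of reads that fit several places is not given in the sources used here. Its part in the low level of PCDHB was not tested.

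The libraries resembled each other more at 10 kb than at 1 kb. Across the 85 windows of 10 kb, Pearson's r of the levels was 0.902 and Spearman's rho 0.846, and across the 850 bins of 1 kb they were 0.689 and 0.548. Neighbouring bins are not independent, and both values are descriptions. A two-sided binomial test of the read split per bin, with counts divided by the dispersion and Benjamini-Hochberg adjusted over all bins with at least 20 reads, called 0 of the 330 bins tested in the locus and 0% of all 1376824 bins tested. At an unadjusted p under 0.05 it gave 4 bins in the locus (1.21%), against 2.93% of all bins tested. With counts as deposited it called 16 bins of the locus, and 4.54% of all bins tested. Differences between the libraries at single bins therefore depend on how the dispersion is treated, and 520 bins of the locus had too few reads for the test.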

How the data were processed

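H3K27me3 was measured by ChIP-seq in 2 libraries of HCT116 cells. The authors deposited raw read counts per 1 kb bin, as their accompanying text names the column, and left out bins without reads. The submitters' processing notes name BWA 0.7.12 and hg19 (GRCh37). How reads were counted, and any filter on duplicates or mapping quality, is not given in the sources used here.

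Levels, the one-sided Poisson test of enrichment and the two-sided binomial test between replicates were computed over chromosomes 1 to 22 and X. The software was scipy 1.17.1, numpy 2.4.6 and pandas 2.3.3 (Python 3.11.15, figures with matplotlib 3.10.9). Both tests were checked on simulated Poisson counts without extra dispersion. The division of counts by the dispersion was not checked in this way. The first 100 kb of PCDHA and the interval from 140711001 to 140816000 of PCDHG stand for variable exons, the last 36 kb and 20 kb for constant exons, and the rest for C-type exons. Named are the clusters' genes and their nearest neighbours, runs of at least 10 kb, the highest bin and the lowest 10 kb of each cluster. The members, stretches and lists were chosen with earlier results of these data known. The promoter comparison and the stretches within the flanks were chosen after values were seen. Alternatives covered scaling, bin size, fold minimum, gaps, stretch and flank widths, unlisted bins, dispersion and each replicate left out. The gene table is on GRCh38 and served for names and order only. The p-values of the Poisson test measure counting error within a library. Those of the binomial test measure counting error of the read split, widened by the dispersion where counts were divided by it. Neither measures the spread between biological replicates.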

Additional observations from a re-analysis of the deposited data

How the results depend on the processing

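Of the alternatives other than leaving out a replicate, 10 left a result the same, 19 moved it and 2 reversed it. A level was the same within 1 SD of the replicates, and a count or share at up to 1.5 times. For levels these labels depend on how closely the 2 libraries agreed, and not only on the size of the change. With an SD of 3.63e-05, even a very small change of PCDHB counted as moved. PCDHA, with an SD of 0.0281, counted as the same at 0.398 without unlisted bins. With 2 libraries, leaving one out moves a mean by less than 1 SD by construction and says nothing about the stability of levels and ratios. The locus level of 0.324 became 0.383 scaled to the mean over all autosomal bins, 0.371 scaled to chromosome 5, 0.832 scaled to the median listed bin and 0.347 without unlisted bins, and it was 0.314 to 0.334 with a replicate left out. As medians over bins, PCDHA, PCDHB and PCDHG stood at 0.319, 0.220 and 0.290, so PCDHG was then under PCDHA. Without unlisted bins PCDHB was 0.284 and PCDHG 0.427. With a replicate left out, the clusters were 0.360 to 0.400, 0.259 and 0.408 to 0.413. Without the 4 bins of its peak, chosen after seeing the data, PCDHG was 0.372. Its ratio of constant to variable exons then fell from 2.12 to 0.958, a reversal of the mean over the libraries. The constant stretch was level with the variable stretch in replicate 1 (0.310 against 0.309) and under it in replicate 2 (0.293 against 0.320). The PCDHG ratio also reversed, to 0.677, with a constant stretch narrower by 10 kb, which leaves out the same bins. It was 1.42 by medians and 1.99 to 2.25 with a replicate left out. The PCDHA ratio of 2.20 became 2.97 by medians and 1.86 to 2.54 with a replicate left out, and it stayed at 2.23 and 2.01 with the constant stretch narrower or wider by 10 kb. Flanks of 150 kb gave 0.439 upstream and 0.765 downstream, and leaving out a replicate of the full flanks gave 0.265 to 0.287 and 1.75 to 1.83. The enriched share of 0.235% became 0.353% at 1.5-fold and without a fold minimum, 0 at 3-fold and in 5 kb bins, and 0.353 to 0.471% in single libraries. The longest run of 2 kb became 0 at 3-fold and in 5 kb bins and was 3 kb in either single library. Bins differing between replicates rose from 0 to 16 with undivided counts. Other causes of these moves were not tested. The mean bin of the locus held 6.92 and 12.5 reads, which limits what single bins show. No paired analysis was possible because the libraries form a single group.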
